A study of Saccharomyces cerevisiae with 18 samples.

Results

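YRO2, MRH1 and HSP30 make up a small family of related membrane proteins of budding yeast, and their newly synthesized RNA (nsRNA) was followed here while coactivators of transcription were degraded. The 3 genes were picked by systematic name (YBR054W, YDR033W and YCR021C) from 6692 genes counted in every library, and all 3 were among the 5567 genes that carried enough reads to be tested. They were picked because of how they had responded to 3-IAA in these same libraries, so their 3-IAA responses are described below with errors but without p-values.

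The auxin-inducible degron (AID) system tags a protein so that the auxin analog 3-IAA, together with the plant F-box protein OsTIR1, triggers its degradation. Libraries came from 3 strains, each a single strain of the W303 background carrying pGPD1-OsTIR1 at leu2: Med16/Spt20-AID (Med16-3V5-IAA7 and Spt20-3xHA-IAA7), Spt20-AID (Spt20-3xHA-IAA7) and Med16/Taf13-AID (Med16-3V5-IAA7 and Taf13-3xHA-IAA7). All 3 strains also share the W303 alleles ura3-1, trp1-1, can1-100 and ade2-1 with mutant leu2 and his3 loci. Cultures at 30 °C in YPD were divided, and the fractions received 0.5 mM 3-IAA or the DMSO solvent for 30 minutes. They were labeled with 4-thiouracil for 6 minutes, with 3 replicates of each of the 6 groups and 18 libraries in all. No library lacked a degron tag or OsTIR1, none had a tag on Med16 alone, and 3-IAA as a chemical and loss of the tagged proteins therefore cannot be told apart. The Med16/Taf13-AID libraries came from another sequencing run, so strain and run cannot be told apart for them.

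Spt20 holds together SAGA, a coactivator complex that modifies chromatin and helps deliver TATA-binding protein. Med16, also named Sin4, belongs to the tail of Mediator, the part that receives signals from activators. Taf13 is a subunit of TFIID, the general factor that brings TATA-binding protein to most promoters. The family members span the membrane several times and resemble microbial rhodopsins in sequence. Hsp30 is induced by heat, ethanol and weak acids and is known as a negative regulator of the plasma membrane proton pump Pma1. Mrh1, named as a membrane protein related to Hsp30, is an abundant plasma membrane protein. Yro2 is its closest relative, and YRO2 is a reported target of the weak-acid transcription factor Haa1.

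In the R64 annotation, which matches the sacCer3 build of the files, the YRO2 coding sequence lies on chromosome II at 343101 to 344135 on the forward strand and has 344 codons. MRH1 lies on chromosome IV at 508147 to 509109 on the forward strand and has 320 codons. HSP30 lies on chromosome III at 156109 to 157107 on the reverse strand and has 332 codons. Translated from the reference genome, YRO2 and MRH1 shared 226 of 319 aligned residues (70.8%), whereas HSP30 shared 39.5% of aligned residues with YRO2 and 34.8% with MRH1. At the DNA level the longest identical run between YRO2 and MRH1 coding sequences was 32 bases, and that of HSP30 with either one was 12 bases. The read lengths given in the paper exceed the longest of these runs, so a full-length read would not lie wholly within one. Multimapping reads were not in the gene counts, and reads lost from the members in this way were not examined.

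The upstream sequences are shown because SAGA and the Mediator tail are best known for their roles at promoters with a TATA box. Within 500 bases before the start codon, each member held at least one match to the 8-letter TATA consensus (TATAAAAA, TATAAAAG, TATAAATA, TATAAATG, TATATAAA, TATATAAG, TATATATA or TATATATG, either strand), as did 52.1% of 6000 protein-coding genes. The match nearest the far end of that window is printed in capitals with the bases before it, 5′ to 3′ on the strand of the gene, from the RefSeq R64 genome. YRO2 spans chrII:342481-342680 (forward), MRH1 chrIV:507539-507738 (forward) and HSP30 chrIII:157283-157482 (reverse).
YRO2: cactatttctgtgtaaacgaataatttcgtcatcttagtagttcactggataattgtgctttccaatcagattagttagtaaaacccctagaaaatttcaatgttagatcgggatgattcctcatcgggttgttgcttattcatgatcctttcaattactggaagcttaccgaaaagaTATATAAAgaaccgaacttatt
MRH1: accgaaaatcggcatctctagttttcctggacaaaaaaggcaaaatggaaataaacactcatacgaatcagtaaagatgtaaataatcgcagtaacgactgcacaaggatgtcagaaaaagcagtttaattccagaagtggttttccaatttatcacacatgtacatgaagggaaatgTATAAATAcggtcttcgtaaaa
HSP30: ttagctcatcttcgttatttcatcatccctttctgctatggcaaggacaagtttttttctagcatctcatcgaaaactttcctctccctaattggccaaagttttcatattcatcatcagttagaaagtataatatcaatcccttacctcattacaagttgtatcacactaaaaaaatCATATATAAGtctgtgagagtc

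The TATA match of YRO2 lay 442 to 435 bases before its start codon. MRH1 had matches 430 to 423 and 382 to 375 bases before its start codon. HSP30 had overlapping matches at 197 to 190 and 195 to 188 bases, which together give the longer run of capitals, and another at 76 to 69 bases. The matches of YRO2 and MRH1 therefore lay farther from the start codon than those of HSP30. None of the 500-base windows held the stress response element AGGGG on either strand, which 34.1% of the 6000 windows held, while the printed YRO2 bases hold it once outside that window, 536 to 532 bases before the start codon. A minimal heat shock element (GAANNTTC or TTCNNGAA) was found in MRH1 alone of the family, 479 to 472 bases before the start codon, and in 35.2% of all windows. YRO2 had 2349 bases to the nearest annotated gene upstream, a gap reached by 1.67% of 5994 genes, whose median gap was 422 bases. All 200 printed bases of MRH1 lie inside the noncoding RNA SUT053 of the same strand, and 62 of the HSP30 bases lie inside the reading frame YCR022C.

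Sense reads ranged between 874975 and 6189719 per library, lowest in the Med16/Taf13-AID 3-IAA libraries. Levels are given as sense counts divided by the size factor of the S. pombe spike-in and by the gene's length in kb, called normalized counts per kb. On this scale the median of all tested genes moved too. It was 0.31 higher on the log2 scale with 3-IAA than with DMSO in Med16/Spt20-AID, 0.38 higher in Spt20-AID and 1.68 lower in Med16/Taf13-AID (log2 −1.68), so each response is also given minus this median. In these bulk cultures, fewer transcribing cells and less RNA per cell cannot be told apart. The tagged subunits are degraded as proteins, so the RNA of SPT20, MED16 and TAF13, detected in all 18 libraries, does not check the depletion. Of the a-cell markers, STE2, STE6, MFA1 and MFA2 were read in every library, while BAR1 was at 0 in 17 of 18. Of the alpha-cell markers, STE3 reached 64.3 to 106 normalized counts in Med16/Spt20-AID, against 13.9 to 28.6 in Spt20-AID, and MFALPHA1 and MFALPHA2 stayed at or below 8.89 in all libraries. A MATa mating type is listed for Med16/Spt20-AID and Spt20-AID and no mating type is listed for Med16/Taf13-AID.

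In Med16/Spt20-AID cells, 3-IAA lowered YRO2 and MRH1 severalfold while HSP30 was slightly higher. YRO2 had 187, 162 and 182 normalized counts per kb with 3-IAA, against 1349.6, 1043 and 1081 with DMSO. The highest 3-IAA library was thus several times below the lowest DMSO library. MRH1 had 849, 699 and 731 normalized counts per kb with 3-IAA, against 3955, 3219 and 3575 with DMSO. HSP30 had 6081, 4611 and 4611 normalized counts per kb with 3-IAA, against 3811, 3507 and 3543 with DMSO. The groups of all 3 members were apart, with the 3-IAA libraries below for YRO2 and MRH1 and above for HSP30, although the HSP30 groups overlapped on the TMM scale, which equalizes the bulk of genes.

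**Figure D1:**
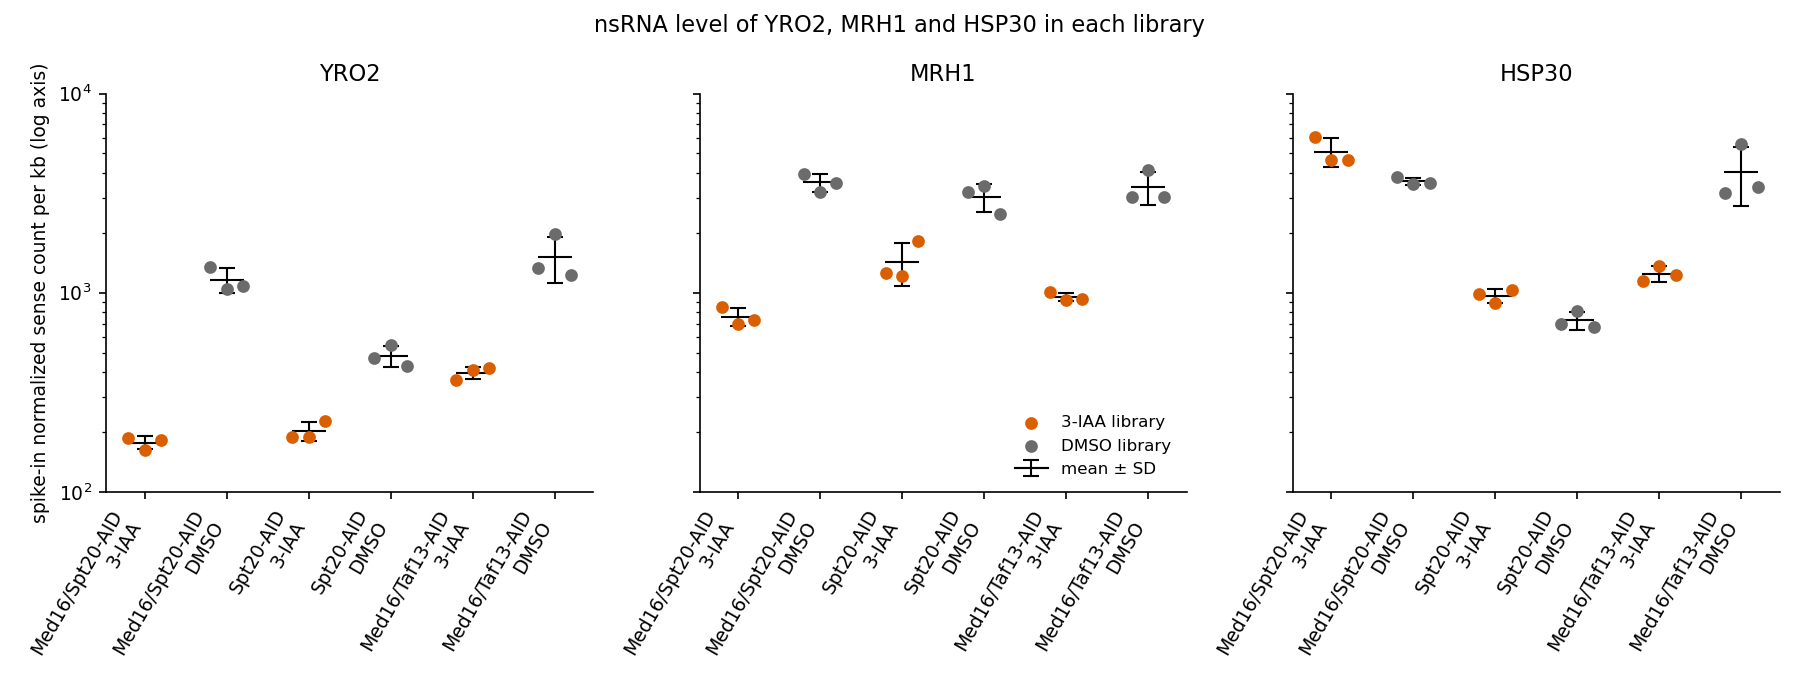
Spike-in normalized sense counts per kb (log axis) of YRO2, MRH1 and HSP30 in each of the 18 libraries, 3-IAA in orange and DMSO in gray, with the mean and SD of 3 replicates per group. YRO2 and MRH1 with 3-IAA lie below DMSO in every strain, and HSP30 lies below DMSO only in Med16/Taf13-AID.

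The log2 fold change of YRO2 in Med16/Spt20-AID was −2.71 (SE 0.15), a 6.53-fold lower level, and only 2 of the 5567 tested genes had a lower value. That of MRH1 was −2.24 (SE 0.15), a 4.72-fold lower level and the eighth lowest value of all. That of HSP30 was 0.49 (SE 0.14), beside the all-gene median of 0.31. Minus this median the log2 changes were −3.02 for YRO2, −2.55 for MRH1 and 0.18 for HSP30. Ranks were taken from group means per kb among 5479 tested protein-coding genes of known length. A factor shared by all libraries of a group leaves these ranks unchanged. By rank, YRO2 stood above 15.2% of genes with 3-IAA and above 89.0% with DMSO. MRH1 stood above 75.1% with 3-IAA and 97.8% with DMSO, and HSP30 above 99.3% with 3-IAA and 97.9% with DMSO. Across all genes, 10.3% were called lower and 46.2% higher at an adjusted p under 0.05 in this strain, or 21.6% lower and 11.9% higher with TMM scaling. Since this contrast was used to pick the family, nothing is read from the 2 members that were lower and the 1 that was higher.

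In Spt20-AID cells the same 2 genes fell by a smaller factor. YRO2 had 188, 189.6 and 228 normalized counts per kb with 3-IAA, against 469, 548 and 429 with DMSO. MRH1 had 1251, 1208 and 1819 normalized counts per kb with 3-IAA, against 3209, 3423 and 2481 with DMSO. Neither pair of groups overlapped, although the third 3-IAA library of MRH1 stood closer to DMSO than the other two. HSP30 had 982, 883 and 1029 normalized counts per kb with 3-IAA, against 696, 810.0 and 673 with DMSO, and the groups overlapped once TMM scaling was used.

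In log2 terms YRO2 changed by −1.26 (SE 0.15), MRH1 by −1.09 (SE 0.14) and HSP30 by 0.41 (SE 0.15) in Spt20-AID. Minus the all-gene median of 0.38, these were −1.64, −1.47 and 0.03. Of all tested genes, 1.01% had a lower value than YRO2 and 1.35% a lower value than MRH1, while HSP30 sat mid-range with 53.8% below it. The background of calls in Spt20-AID was 8.08% lower and 54.0% higher (25.1% lower and 17.1% higher with TMM), and again this contrast was known when the genes were picked.

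**Figure D2:**
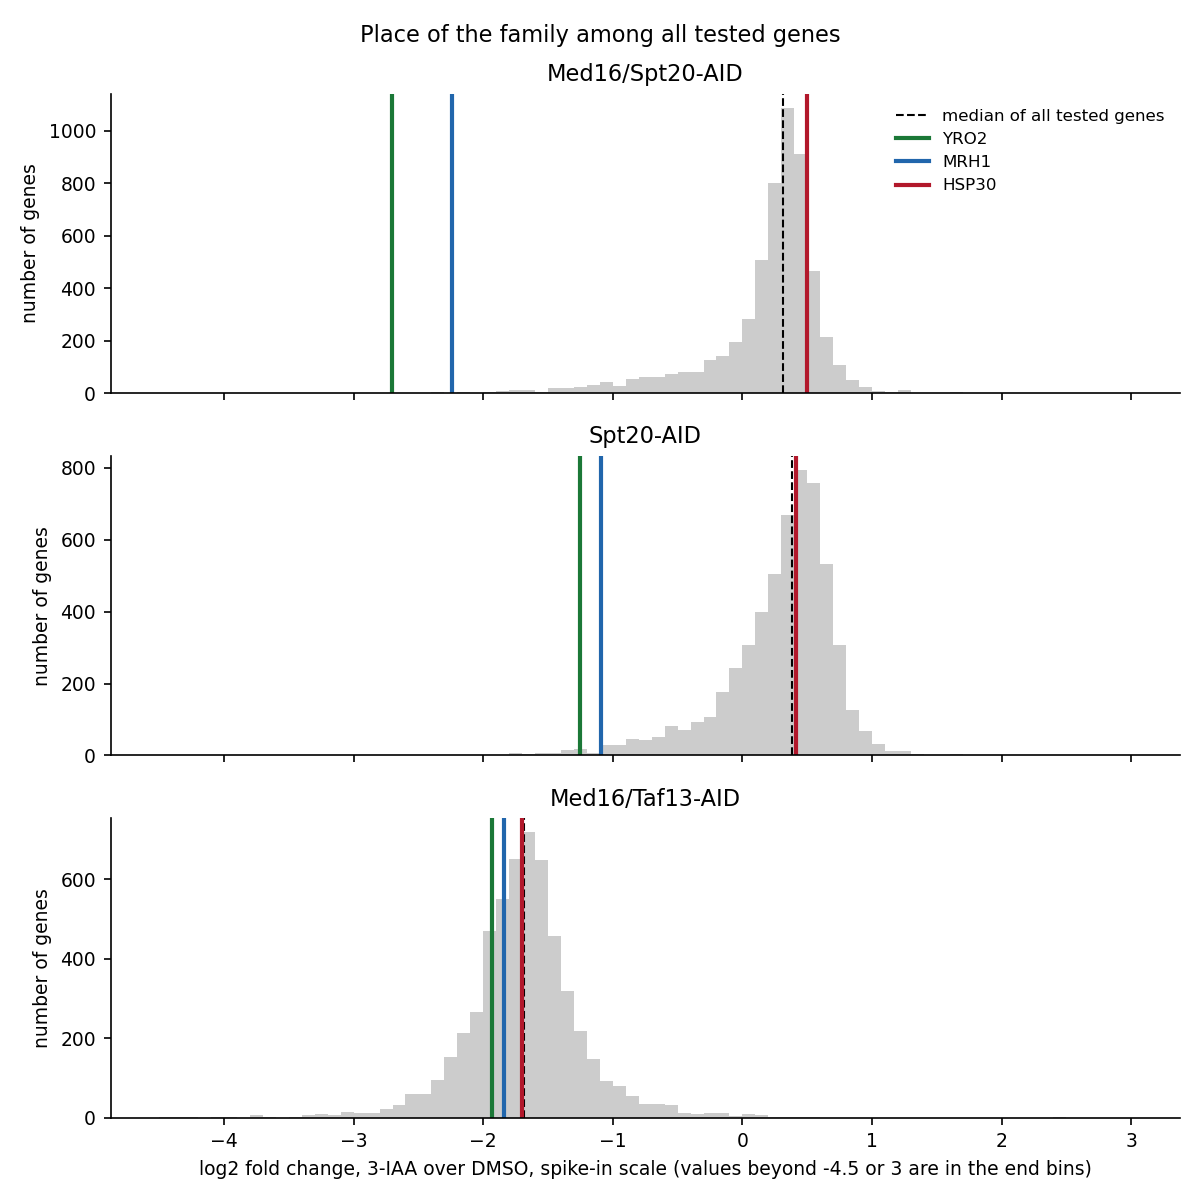
Number of tested genes (5567) by log2 fold change of 3-IAA over DMSO on the spike-in scale, one panel per strain, with the all-gene median dashed and the family members as colored lines. YRO2 and MRH1 lie in the lower tail in Med16/Spt20-AID and Spt20-AID, HSP30 lies with the bulk of genes in every panel, and all 3 lie with the bulk in Med16/Taf13-AID.

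The double degron response minus the single degron response, taken as an interaction contrast of the same fit, was −1.45 (SE 0.21) for YRO2 and −1.15 (SE 0.20) for MRH1 on the log2 scale. It was 0.08 (SE 0.21) for HSP30, and the all-gene median was −0.10. YRO2 was 14th and MRH1 46th from the lowest of 5567 genes. In this contrast 2.64% of genes were called lower and 0.611% higher (7.24% lower and 8.19% higher with TMM). It uses the same 12 libraries as the 2 responses above and adds no independent evidence. Where the difference lay depended on the scaling. On the spike-in scale the YRO2 mean with 3-IAA was 177 ± 12.98 normalized counts per kb in Med16/Spt20-AID and 202 ± 22.4 in Spt20-AID, whereas with DMSO it was 1158 ± 167 in Med16/Spt20-AID and 482 ± 60.2 in Spt20-AID (SD, n = 3 each). The MRH1 mean was 759 ± 78.9 normalized counts per kb in Med16/Spt20-AID and 1426 ± 341 in Spt20-AID with 3-IAA, and 3583 ± 368 in Med16/Spt20-AID and 3038 ± 494 in Spt20-AID with DMSO. On this scale YRO2 was thus further apart between strains with DMSO and MRH1 with 3-IAA.

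With TMM scaling both genes were further apart with 3-IAA. YRO2 then had 35.0, 30.7 and 37.8 TMM-scaled CPM in Med16/Spt20-AID and 69.5, 78.5 and 73.2 in Spt20-AID with 3-IAA. With DMSO it had 287, 245 and 268 in Med16/Spt20-AID and 198, 237 and 229 in Spt20-AID. MRH1 had 148, 123 and 141 TMM-scaled CPM in Med16/Spt20-AID and 429.6, 465 and 544 in Spt20-AID with 3-IAA. With DMSO it had 782, 703 and 825 in Med16/Spt20-AID and 1258, 1377 and 1229.5 in Spt20-AID. None of these groups overlapped between strains.

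Med16/Taf13-AID cells gave the family a common decline. YRO2 had 366, 407 and 417 normalized counts per kb with 3-IAA, against 1337, 1966 and 1234 with DMSO. MRH1 had 1004, 917 and 934 with 3-IAA, against 3031, 4145 and 3021 with DMSO. HSP30 had 1151, 1367 and 1221 with 3-IAA, against 3182, 5598 and 3398 with DMSO. For each member all 3-IAA libraries lay below all DMSO libraries, and the second DMSO library was the highest of its group.

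The log2 fold changes in Med16/Taf13-AID were −1.93 (SE 0.15) for YRO2, −1.84 (SE 0.15) for MRH1 and −1.70 (SE 0.15) for HSP30. Beside the all-gene median of −1.68 this left −0.25, −0.16 and −0.02. Calls of lower genes covered 98.2% of those tested and calls of higher genes 0.0719% (810 lower and 833 higher of the 5567 with TMM). On the TMM scale the YRO2 and HSP30 groups of this strain overlapped and the MRH1 groups did not. By rank, YRO2 stood above 91.2% of genes with 3-IAA and 94.2% with DMSO, so its place among other genes moved by a few percent here, beside the large move in Med16/Spt20-AID.

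Ratios of members within one library do not depend on the size factor. They come from the same counts that picked the family, so they describe its responses in another form and add no independent evidence. The ratio of HSP30 to MRH1 differed between treatments in Med16/Spt20-AID and Spt20-AID but not in Med16/Taf13-AID. In Med16/Spt20-AID the per-kb ratio of HSP30 to MRH1 was 7.17, 6.60 and 6.31 with 3-IAA, against 0.963, 1.09 and 0.991 with DMSO. In Spt20-AID it was 0.785, 0.731 and 0.566 with 3-IAA, against 0.217, 0.237 and 0.271 with DMSO. In Med16/Taf13-AID it was 1.15, 1.49 and 1.31 with 3-IAA, against 1.05, 1.35 and 1.12 with DMSO, and these groups overlapped. HSP30 and MRH1 therefore had near-equal levels in Med16/Spt20-AID with DMSO, and HSP30 was well above MRH1 in the same strain with 3-IAA. The per-kb ratio of HSP30 to YRO2 in Med16/Spt20-AID was 28.8 ± 3.59 with 3-IAA and 3.15 ± 0.289 with DMSO (SD, n = 3 each).

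The ratio of YRO2 to MRH1 moved much less. In Med16/Spt20-AID it was 0.220, 0.232 and 0.249 with 3-IAA, against 0.341, 0.324 and 0.303 with DMSO, so the groups were apart and YRO2 was reduced somewhat more than MRH1. In Spt20-AID it averaged 0.144 ± 0.0168 with 3-IAA and 0.160 ± 0.0135 with DMSO, and in Med16/Taf13-AID 0.418 ± 0.0469 with 3-IAA and 0.441 ± 0.0329 with DMSO (SD, n = 3 each). Both of these pairs overlapped. MRH1 was above YRO2 in every library.

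**Figure D3:**
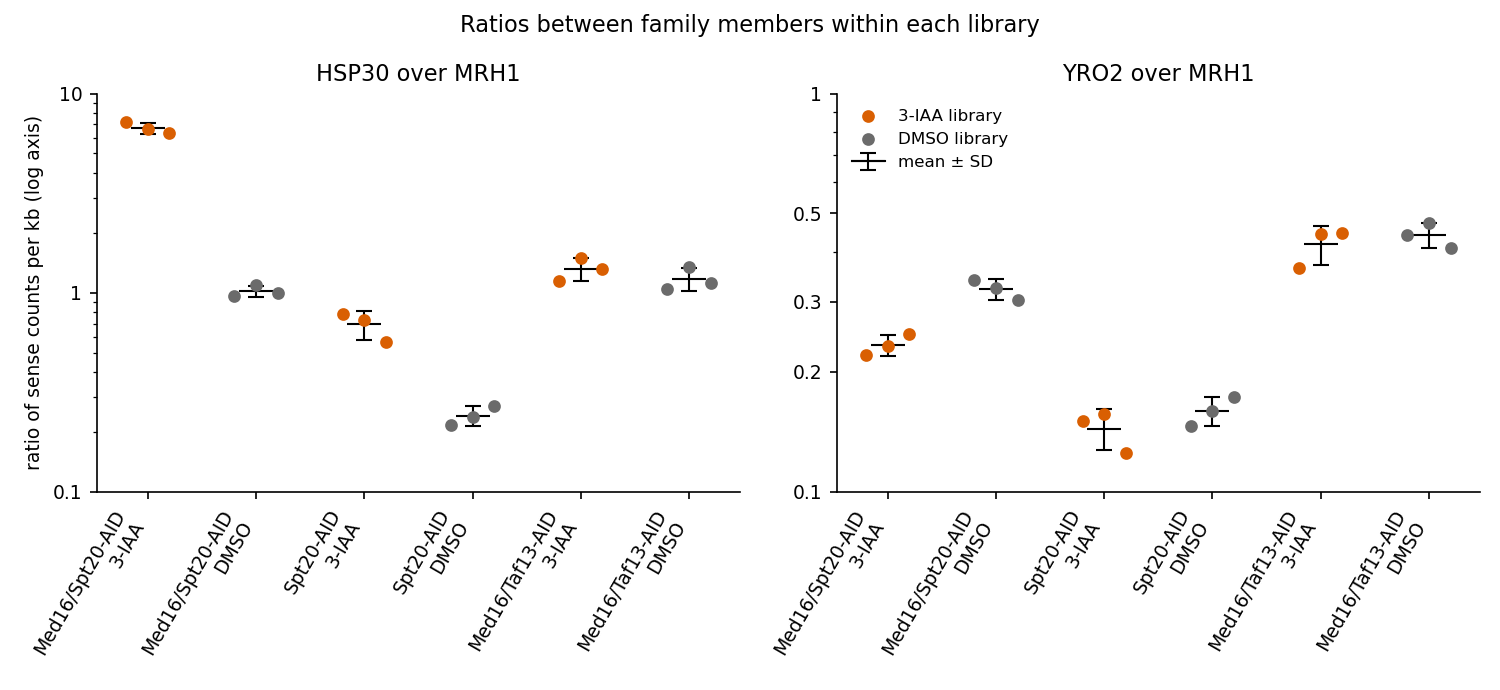
Ratio of sense counts per kb (log axis) of HSP30 to MRH1 and of YRO2 to MRH1 in each of the 18 libraries, with the mean and SD of 3 replicates per group. HSP30 over MRH1 averages 6.69 with 3-IAA and 1.01 with DMSO in Med16/Spt20-AID, whereas YRO2 over MRH1 stays under 0.5 in all libraries.

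The order of levels per kb differed between strains. In Med16/Spt20-AID with DMSO, HSP30 (3620.1 ± 166) and MRH1 (3583 ± 368) did not differ beyond their spread and YRO2 was lowest, whereas with 3-IAA the order was HSP30 (5101 ± 849), MRH1 and YRO2 with no overlap. In Spt20-AID the order was MRH1, HSP30 and YRO2 under both treatments, with HSP30 at 964 ± 74.5 with 3-IAA and 726 ± 73.3 with DMSO. In Med16/Taf13-AID with DMSO, the group values of HSP30 (4059 ± 1337) and MRH1 (3399 ± 646) overlapped, and with 3-IAA those of HSP30 (1246 ± 110.0) and MRH1 (952 ± 45.9) did not, while within each library HSP30 was above MRH1 under both treatments (normalized counts per kb, SD, n = 3 each).

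Levels with DMSO could be set side by side for Med16/Spt20-AID and Spt20-AID. The DMSO libraries are the denominators of the responses that picked the family, so this difference is given for the members with errors but without p-values, and each strain is a single one. HSP30 was higher in Med16/Spt20-AID by 2.32 on the log2 scale (SE 0.15), where the median of all genes was higher by 1.01 and 94.3% of genes were called higher and 0.341% lower (edgeR quasi-likelihood test). With TMM scaling, where 26.2% were called higher and 27.3% lower, HSP30 was still higher by 1.32 (SE 0.12). In CPM (sense counts scaled to an equal total in each library), HSP30 had 839 ± 28.7 in Med16/Spt20-AID and 298 ± 32.5 in Spt20-AID (SD, n = 3 each). Only 57 of the 5567 genes had a higher fold change in this comparison.

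YRO2 was higher in Med16/Spt20-AID with DMSO by 1.27 (SE 0.14), or by 0.26 (SE 0.09) with TMM scaling. In CPM it had 277 ± 24.1 in Med16/Spt20-AID and 204 ± 19.8 in Spt20-AID. MRH1 had 0.24 (SE 0.14) on the spike-in scale. With TMM scaling its direction turned to −0.75 (SE 0.09), with 799.5 ± 63.5 CPM in Med16/Spt20-AID and 1189.95 ± 75.6 in Spt20-AID. The 3 members thus took 3 different places in the baseline distribution, with 99.0% of genes below HSP30, 75.7% below YRO2 and 4.19% below MRH1.

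Antisense reads over the members were few. They summed to 517 for HSP30 (1.11% of its reads on both strands), 121 for YRO2 (1.04%) and 72 for MRH1 (0.173%) over all 18 libraries, where 5.64 to 8.46% of gene reads were antisense in each library as a whole. HSP30 alone passed the minimum mean of 10 antisense reads. HSP30 antisense reads in Spt20-AID were 55, 45 and 32 with 3-IAA, against 26, 21 and 33 with DMSO. The log2 change after spike-in scaling was 1.03 (SE 0.26, edgeR quasi-likelihood adjusted p = 0.00115), where 24.7% of 2053 features were called higher and 4.72% lower and the median was 0.41. With TMM scaling it was 0.67 (adjusted p = 0.0238). On the spike-in scale HSP30 antisense and sense reads both had higher values with 3-IAA in this strain. With TMM scaling the sense change was 0.04 (SE 0.12) and the sense groups overlapped.

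In Med16/Spt20-AID, HSP30 antisense reads were 49, 45 and 49 with 3-IAA, against 38, 46 and 50 with DMSO, and the log2 change of 0.26 (SE 0.24) did not pass the test (adjusted p = 0.377), where 32.0% of features were called higher and 5.94% lower. In Med16/Taf13-AID they were 3, 1 and 2 with 3-IAA, against 5, 10 and 7 with DMSO. The log2 change there was −2.19 (SE 0.61, adjusted p = 0.000916), among 61.9% of features called lower and 1.17% higher, and it did not pass with TMM scaling (−0.98, adjusted p = 0.246). At a minimum mean of 5 antisense reads YRO2 was tested too, and it passed in no strain (0.27, adjusted p = 0.592 in Med16/Spt20-AID; 1.18, adjusted p = 0.149 in Spt20-AID; −2.23, adjusted p = 0.057 in Med16/Taf13-AID). Beside the lower sense counts, antisense reads made up 7.03% of YRO2 reads in Med16/Spt20-AID with 3-IAA and 0.960% with DMSO.

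The genes next to YRO2 and MRH1 had smaller changes than these members in Med16/Spt20-AID and Spt20-AID, and similar ones in Med16/Taf13-AID. Around YRO2, the log2 changes in Med16/Spt20-AID were 0.15 (SE 0.15, adjusted p = 0.362) for YBR053C upstream and 0.31 (SE 0.14, adjusted p = 0.0463) for PRP6, a splicing factor gene, downstream. Around MRH1, PST2, a flavodoxin-like protein gene and the nearest counted gene upstream, fell by 0.59 (SE 0.14, adjusted p = 0.00025), and LYS14, an activator of lysine synthesis genes, was higher by 0.40 (SE 0.14, adjusted p = 0.0112). Next to HSP30, HTL1, encoding a subunit of the RSC chromatin remodeler, had 0.32 (SE 0.17, adjusted p = 0.0913), and YCR022C was below the count minimum with a mean of 6.61 reads. In Spt20-AID the neighbors had log2 changes of 0.82 for YBR053C, 0.27 for PRP6, −0.04 for PST2, 0.54 for LYS14 and 0.21 for HTL1. In Med16/Taf13-AID they had −1.94 for YBR053C, −2.13 for PRP6, −1.68 for PST2, −1.66 for LYS14 and −1.52 for HTL1, beside the all-gene median of −1.68.

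Genes with related roles were drawn from lists of Haa1-responsive genes, of the plasma membrane proton pump, of eisosomes and of stress genes. The Haa1 list holds HAA1 itself and leaves out the family. Of its 9 tested genes, 2 rose and 4 fell in Med16/Spt20-AID and 1 rose and 4 fell in Spt20-AID. Of all genes, 46.2% were higher and 10.3% lower in Med16/Spt20-AID and 54.0% higher and 8.08% lower in Spt20-AID. With TMM scaling 1 rose and 7 fell in Med16/Spt20-AID and 0 rose and 6 fell in Spt20-AID, with HAA1 among those that fell in both. The TMM shares of all genes were 11.9% higher and 21.6% lower in Med16/Spt20-AID and 17.1% higher and 25.1% lower in Spt20-AID. The list median was −0.23 in Med16/Spt20-AID (all genes 0.31) and −0.31 in Spt20-AID (all genes 0.38). YGP1, encoding a secreted glycoprotein, fell by 3.00 (SE 0.16, adjusted p = 1.27e-77) in Med16/Spt20-AID and by 1.30 (adjusted p = 2.49e-17) in Spt20-AID, which is close to YRO2 in both. PHM8, encoding a phosphatase, fell by 1.27 (adjusted p = 7.94e-07) in Med16/Spt20-AID and by 1.92 (adjusted p = 2.48e-16) in Spt20-AID. TPO2 fell by 1.00 (adjusted p = 0.000313) in Med16/Spt20-AID and by 0.79 (adjusted p = 0.000115) in Spt20-AID. TDA6, a gene of unknown role, rose by 1.25 (adjusted p = 3.07e-09) in Med16/Spt20-AID and had 0.12 (adjusted p = 0.666) in Spt20-AID. HAA1 itself had −0.23 (adjusted p = 0.129) in Med16/Spt20-AID and −0.15 (adjusted p = 0.355) in Spt20-AID, and with TMM scaling −0.53 in both (adjusted p = 1.34e-05 and 3.85e-05).

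Of 6 genes of the proton pump, its small subunits and its activating kinases, 0 rose and 2 fell in Med16/Spt20-AID and 2 rose and 2 fell in Spt20-AID. With TMM scaling 0 rose and 4 fell in Med16/Spt20-AID and 0 rose and 3 fell in Spt20-AID. The shares of all genes were those given for the Haa1 list. The kinase gene HRK1 is on both lists. On the spike-in scale the genes that fell were those of the small proteolipid subunits. PMP2 fell by 0.71 (SE 0.14, adjusted p = 1.26e-05) in Med16/Spt20-AID and by 0.75 (adjusted p = 2.11e-06) in Spt20-AID, and PMP1 fell by 0.41 (adjusted p = 0.0105) and by 0.61 (adjusted p = 0.000104) in the same order. The kinase gene PTK2 had 0.18 (adjusted p = 0.248) in Med16/Spt20-AID and rose by 0.54 (adjusted p = 0.000872) in Spt20-AID. With TMM scaling its Spt20-AID value was 0.17 (adjusted p = 0.163). PMA1, the pump itself, had −0.30 (SE 0.16, adjusted p = 0.0804) in Med16/Spt20-AID and 0.06 (adjusted p = 0.747) in Spt20-AID, and with TMM scaling it was lower in both (−0.60, adjusted p = 2.59e-07, and −0.31, adjusted p = 0.00234). The list median was −0.25 in Med16/Spt20-AID and 0.15 in Spt20-AID.

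Of 14 genes of eisosomes, the furrows of the plasma membrane, and of the surrounding compartment, 3 rose and 5 fell in Med16/Spt20-AID and 5 rose and 3 fell in Spt20-AID, with medians of 0.04 and 0.27. With TMM scaling 0 rose and 7 fell in Med16/Spt20-AID, where 11.9% of all genes were higher and 21.6% lower. In Spt20-AID 2 rose and 7 fell on that scale, where 17.1% of all genes were higher and 25.1% lower. Of all genes, 46.2% were higher and 10.3% lower in Med16/Spt20-AID and 54.0% higher and 8.08% lower in Spt20-AID on the spike-in scale. In Med16/Spt20-AID the largest decreases were those of NCE102 (−1.24, adjusted p = 3.55e-16), a membrane organizer gene, PUN1 (−1.18, adjusted p = 1.28e-13) and LSP1 (−0.90, adjusted p = 4.57e-09), a core eisosome component. In Spt20-AID PUN1 had −1.30 (adjusted p = 1.46e-15), while SEG2 (0.82, adjusted p = 1.75e-06) and SLM1 (0.73, adjusted p = 4.9e-06) rose. None of the 14 fell as far as YRO2 or MRH1 in Med16/Spt20-AID.

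Of 10 heat shock and general stress genes, 0 rose and 8 fell in Med16/Spt20-AID and 7 rose and 3 fell in Spt20-AID, with medians of −0.82 and 0.57. With TMM scaling 0 rose and 9 fell in Med16/Spt20-AID, where 11.9% of all genes were higher and 21.6% lower. In Spt20-AID 4 rose and 3 fell on that scale, where 17.1% of all genes were higher and 25.1% lower. The shares of all genes on the spike-in scale were 46.2% higher and 10.3% lower in Med16/Spt20-AID and 54.0% higher and 8.08% lower in Spt20-AID. The largest decreases in Med16/Spt20-AID were those of DDR2 (−2.14, adjusted p = 6.24e-05), HSP12 (−1.81, adjusted p = 2.25e-09), a small membrane-associated stress protein gene, and HSP82 (−0.91, adjusted p = 6.1e-08), encoding Hsp90. In Spt20-AID, SSA4, a heat-inducible Hsp70 gene, rose by 1.95 (adjusted p = 1.76e-34), and DDR2 (−1.81, adjusted p = 8.94e-05) and HSP12 (−1.54, adjusted p = 4.53e-12) fell. The interaction contrast called 6 of the 10 lower and 0 higher, beside 2.64% of all genes lower and 0.611% higher, led by SSA4 (−2.02, adjusted p = 7.52e-19), HSP42 (−1.74, adjusted p = 2.75e-14) and HSP104 (−1.73, adjusted p = 6.48e-13). HSP30, named as a heat shock gene, had an interaction value of 0.08 beside the list median of −1.45. The 4 list genes not called had 0.18 (HSP26), −0.27 (HSP12), −0.33 (DDR2) and −0.45 (TPS1). With DMSO, 8 of the 10 were higher and 1 lower in Med16/Spt20-AID than in Spt20-AID, where 94.3% of all genes were higher and 0.341% lower. With TMM scaling 8 were higher and 2 lower, where 26.2% of all genes were higher and 27.3% lower. The list median was 2.02 on the spike-in scale, beside 1.01 for all genes. The largest increases were those of CTT1, the cytosolic catalase gene (3.58, adjusted p = 8.56e-65), SSA4 (2.93, adjusted p = 9.02e-74) and HSP26, a small chaperone gene (2.52, adjusted p = 1.93e-39).

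**Figure D4:**
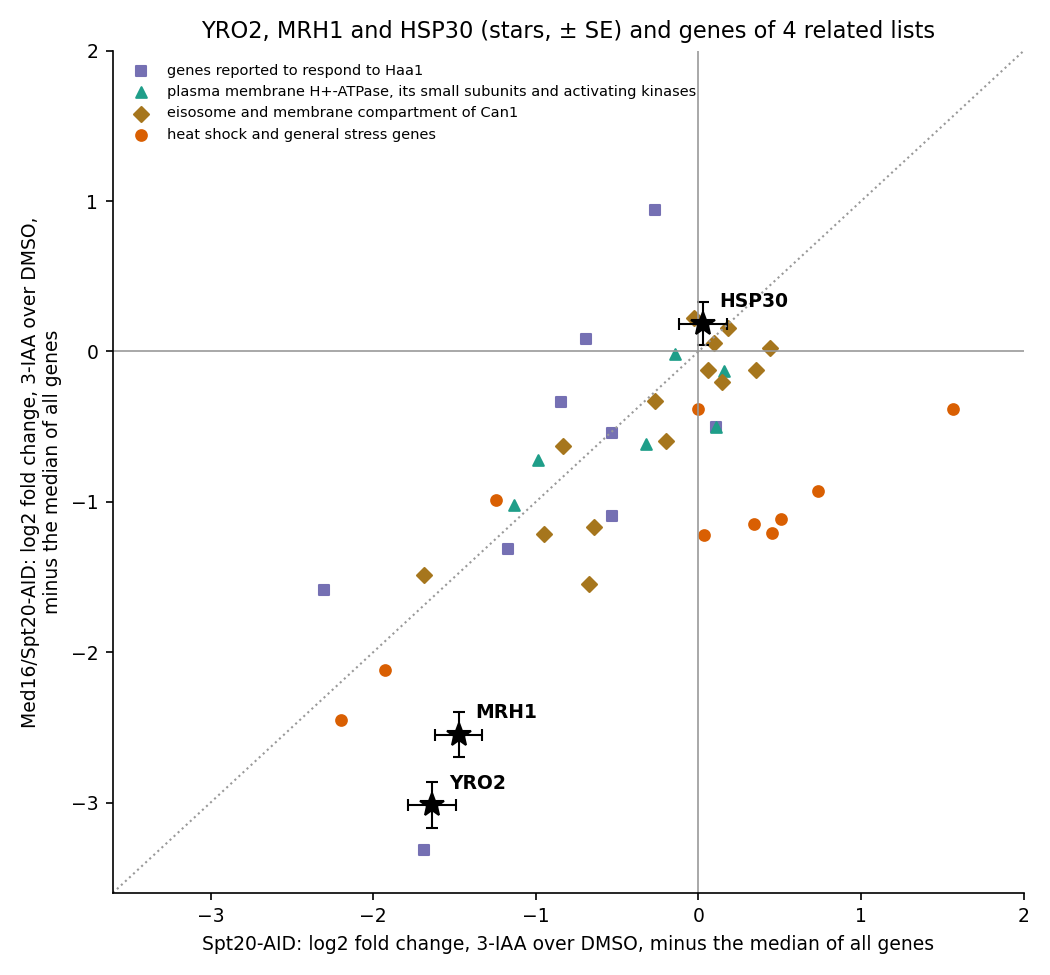
Log2 fold change of 3-IAA over DMSO minus the median of all genes, in Med16/Spt20-AID (vertical axis) and in Spt20-AID (horizontal axis), for the family (stars, with SE) and for the genes of 4 related lists. YRO2 and MRH1 lie low on both axes, as do YGP1, PHM8, PUN1 and the stress genes HSP12 and DDR2, among others. HSP30 lies near the origin. All 10 heat shock and general stress genes lie below the origin. Of these, 4 lie left of it and the others right of it, HSP82 by only 0.03.

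In Med16/Taf13-AID all 9 genes of the Haa1 list, all 6 proton pump genes, all 14 eisosome genes and 9 of the 10 stress genes were lower. So were 98.2% of all genes, and these counts are near the background. The list medians there were −1.74, −1.57, −1.72 and −2.07, beside −1.68 for all genes. With TMM scaling the calls in the same order were 0 higher and 2 lower, 1 higher and 0 lower, 3 higher and 3 lower, and 2 higher and 5 lower, where 833 of all 5567 genes were higher and 810 lower.

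Across the 18 libraries the TMM-scaled log2 level of YRO2 had a Pearson r of 0.876 with MRH1 and 0.264 with HSP30, and MRH1 had −0.222 with HSP30. The libraries fall into 6 groups and share strain and treatment, so these values mostly describe group means. On the spike-in scale r was 0.836 for YRO2 with MRH1, 0.310 for YRO2 with HSP30 and 0.0186 for MRH1 with HSP30. As deviations from group means on the TMM scale, r was 0.573 for YRO2 with MRH1, 0.747 for YRO2 with HSP30 and 0.444 for MRH1 with HSP30. Other gene pairs were not compared in this way. On that scale the second Med16/Taf13-AID DMSO library was the highest of its group for all 3 members. Of 5147 other genes at a minimum mean count of 50, those most like YRO2 were YCR102C (r 0.989), ARE2 (0.982), a sterol acyltransferase gene, CAR1 (0.977), the arginase gene, SFA1 (0.976), an alcohol dehydrogenase gene, and CRH1 (0.976), a cell wall transglycosylase gene. MRH1 was 198th in this order.

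Those most like MRH1 were ADH6 (r 0.984), an alcohol dehydrogenase gene, SCW10 (0.980), a cell wall protein gene, GPX2 (0.979), a peroxidase gene, GAS1 (0.979), a cell wall glucanosyltransferase gene, and CYS4 (0.976), a cysteine synthesis gene, with YRO2 117th. Those most like HSP30 were SDS24 (0.959), RGT1 (0.957), a repressor of glucose transporter genes, VIR1 (0.947), PAT1 (0.946), an mRNA decapping factor gene, and MSC3 (0.945). Neither YRO2 nor MRH1 came near the top of that order, at 1507th and 2934th. YCR102C had log2 changes of −2.12 in Med16/Spt20-AID, −1.06 in Spt20-AID and −1.52 in Med16/Taf13-AID, beside −2.71, −1.26 and −1.93 for YRO2. SDS24 had 0.54, 0.80 and −1.23, beside 0.49, 0.41 and −1.70 for HSP30. All 15 genes were picked by likeness over the same libraries, so their values are descriptions.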

How the data were processed

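The authors aligned nsRNA-seq reads (TruSeq stranded kit) with STAR 2.6.1a to sacCer3 and deposited raw counts per gene for each library, on both strands together, on the sense strand and on the antisense strand. Multimapping reads were not counted to genes, and 8.71 to 13.2% of unique reads had no gene or an ambiguous one. Size factors of the S. pombe spike-in were recovered by nonnegative least squares from the mean normalized counts of 1396 genes that the study tabulates (median error 6.71e-05%). The copy of that table used here lists 1999 genes and may be shortened.

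Genes averaging at least 10 sense reads were fitted in edgeR 4.0.16 (R 4.3.3) over all 18 libraries in 6 groups, using its quasi-likelihood test. The p-values were adjusted by Benjamini-Hochberg across every gene tested (threshold 0.05). The SE is the size of the log2 fold change over the root of its F statistic. Antisense counts were fitted likewise. Alternatives were TMM, median-of-ratios factors, DESeq2 1.42.0, other count minimums, both strands, only the libraries compared, a replicate block and leaving out each library. Likeness is Pearson r of log2(TMM-scaled CPM + 1). The fit was tested on simulated data in which a small set of genes changed in a single group. That simulation did not cover a shift of nearly all genes, so it does not bear on calls made under such a shift. Summaries used Python 3.11.15, pandas 2.3.3, numpy 2.4.6 and matplotlib 3.10.9. Of 6692 gene names, 6008 matched the R64 annotation.

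The family, the gene lists and the tests were chosen with earlier results of these data known. Named are the family, the 5 genes most like each member, annotated neighbors and the depleted subunits. Of each list, called genes among the 3 largest changes of a contrast are named, plus PMA1 and HAA1. The stress genes not called in the interaction are named too. The DMSO comparison was fitted with a test, and the p-values of the members are left out of the report because their DMSO libraries also enter the responses that picked them. The study calls the replicates biological. According to the paper, cells were divided equally between 3-IAA and DMSO, so the treatments are paired by design. Labels do not say that a replicate number marks such a shared culture. The main fit therefore leaves the libraries unpaired, and pairing by number enters only in the replicate block. Of the marker lists, ranges alone are given. The end of the printed windows was set 14 bases past the TATA match after the matches were seen.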

Additional observations from a re-analysis of the deposited data

Results flagged for a closer look

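HSP30 moved in opposite directions in different strains on the spike-in scale. Each 3-IAA library of Med16/Taf13-AID lay below the mean of its DMSO libraries, whereas each one of Med16/Spt20-AID and of Spt20-AID lay above it. The mean log2 ratio of Med16/Taf13-AID minus that of Med16/Spt20-AID was −2.14, and minus that of Spt20-AID it was −2.07. These differences between strains were not tested, and Med16/Taf13-AID came from another sequencing run. The median of all genes was −1.68 in Med16/Taf13-AID, 0.31 in Med16/Spt20-AID and 0.38 in Spt20-AID. Minus this median, the HSP30 changes were −0.02, 0.18 and 0.03 in the same order.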

How the results depend on the processing

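TMM and median-of-ratios factors, which center the bulk of genes, moved most values. The pairs that follow give TMM and then median-of-ratios. In Med16/Spt20-AID the log2 changes were −2.99 and −2.97 for YRO2, −2.53 and −2.50 for MRH1 and 0.20 and 0.22 for HSP30. In Spt20-AID they were −1.62 and −1.60 for YRO2 and 0.041 and 0.063 for HSP30. In Med16/Taf13-AID they were −0.25 and −0.24 for YRO2, −0.17 and −0.15 for MRH1 and −0.021 and −0.0032 for HSP30. The DMSO difference of MRH1 between Med16/Spt20-AID and Spt20-AID reversed (−0.75 in both), and with TMM the HSP30 antisense change reversed in Med16/Spt20-AID (−0.11) and missed the threshold in Med16/Taf13-AID (−0.98). Minus the all-gene median, the spike-in DMSO difference of MRH1 was −0.77. The spike-in median of all antisense features in Med16/Spt20-AID was 0.38, beside 0.26 for HSP30. The cause was not tested. Genes called higher numbered 663 and 845 in place of 2573 in Med16/Spt20-AID, 951 and 1120 in place of 3004 in Spt20-AID, 833 and 905 in place of 4 in Med16/Taf13-AID (2 with DESeq2), 456 and 462 in place of 34 in the interaction and 1461 and 1497 in place of 5250 at baseline. Genes called lower numbered 1200 and 1143 in place of 576, 1395 and 1333 in place of 450, 810 and 749 in place of 5467, 403 and 393 in place of 147, and 1519 and 1493 in place of 19.

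Leaving out one library at a time gave −2.78 to −2.59 for YRO2, −2.33 to −2.16 for MRH1 and 0.35 to 0.56 for HSP30 in Med16/Spt20-AID, and −1.35 to −1.16, −1.30 to −0.99 and 0.36 to 0.49 for the same genes in Spt20-AID. The interaction value was −1.55 to −1.33 for YRO2, −1.25 to −0.93 for MRH1 and −0.06 to 0.15 for HSP30. The DMSO difference of MRH1 was 0.11 to 0.33, and it was highest without the second Spt20-AID DMSO library. Genes called higher in Med16/Spt20-AID numbered 1109 to 2856, lowest without its DMSO replicate 3, and 1410 to 1618 without its second DMSO or its first or second 3-IAA library. In the interaction 19 to 121 were higher, the extremes without Spt20-AID 3-IAA replicate 2 and Spt20-AID DMSO replicate 3. At baseline 12 to 31 genes were lower, the extremes without Spt20-AID DMSO replicates 1 and 3, and in Med16/Taf13-AID 2 to 6 were higher, fewest without its first DMSO library. Same-numbered libraries deviated together with correlations of 0.46, 0.47 and 0.22 in Med16/Spt20-AID, 0.41, 0.07 and 0.28 in Spt20-AID and 0.17, 0.19 and 0.03 in Med16/Taf13-AID, and 16 of 18 libraries correlated best with their own number. With the replicate block, chosen for antisense reads after seeing the data, YRO2 had −2.70 and MRH1 −2.24 in Med16/Spt20-AID, 127 genes were lower and 28 higher in the interaction, and no call of a member changed. Depth limits antisense values, which rest on 1 to 55 reads of HSP30 per library.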
